A study of Homo sapiens with 8 samples.

Results

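The 10 genes described here carry glucose into the cell and convert it to pyruvate and lactate, or decide whether pyruvate enters the mitochondrion: SLC2A1, SLC2A3, HK2, PFKP, ALDOA, PGK1, ENO1, PKM, LDHA and PDK1. They were chosen by name, as a list, and all 10 were found by their Ensembl identifiers among the 60675 genes measured. RNA-seq was performed on H9 human embryonic stem cells (hESCs, line WA09, an established cell line derived from a blastocyst) at 4 stages of long-term culture, with 2 samples per stage and no treatment. P1 hESCs were at passages in the 40s, P2 hESCs in the 100s, P3 hESCs in the 200s and P4 hESCs in the 300s, and all were grown without feeder cells in mTeSR1 medium on Matrigel and passaged with dispase. P1 to P4 hESCs come from 1 line, so passage, time in culture and anything else that separates the 4 cultures cannot be told apart, and the labels do not say whether the 2 samples of a stage are separate cultures. P-values therefore measure only the spread between these samples, which may be technical. The study describes P3 and P4 hESCs as carrying a gain of a segment on the chromosome that holds BCL2L1, and none of the 10 genes lies on that chromosome.

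Glycolysis splits glucose into pyruvate in the cytoplasm and yields ATP without oxygen. Human pluripotent stem cells are known for a high rate of glycolysis and for releasing much of the carbon as lactate, even when oxygen is present. Pyruvate has 2 main fates: lactate dehydrogenase reduces it to lactate, whereas the pyruvate dehydrogenase complex turns it into acetyl-CoA inside the mitochondrion, a step that the PDK kinases switch off by phosphorylation. Many of these genes, PDK1 and LDHA among them, are known targets of the hypoxia-inducible factors (HIFs), which bind short DNA sequences with the core ACGTG or GCGTG.

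One gene of the 10, PDK1, differed clearly between the stages. It was highest in P3 hESCs, at 2.93 times the level of P1 hESCs, and intermediate in P4 hESCs. The transporters and the enzymes from hexokinase to lactate dehydrogenase were not called in any comparison of stages in the reported fits, and 8 of these 9 genes, HK2 being the exception, differed more between the replicates of P3 hESCs than between the means of any 2 stages. Among the other genes of the pathway, PDHA1 was higher in P4 than in P1 hESCs. VEGFA and ADM, HIF targets outside glycolysis, were lower in P3 and P4 than in P1 and P2 hESCs. EGLN1, an oxygen sensor, was lower in P3 than in P1 hESCs. Its levels in P2 and P4 hESCs were close to that in P3 hESCs.

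The letters that HIFs recognise were present in the promoters of most of the 10 genes. A few of these stretches are shown to give the reader the sequences in question. Promoter windows of 300 bases, from 250 bases before a RefSeq start site to 50 after it (build GRCh38.p14), were found for 9 of the 10 genes, 17 windows in all. SLC2A3 had no window. Both strands were searched for ACGTG and GCGTG. Of the 17 windows, 14 (82.4%) held at least 1 match, compared with 48.4% of all 35116 windows. Some genes have several windows, and those of ALDOA at chr16:30064029-30064328 and chr16:30064247-30064546 overlap. The windows are thus not independent, and the difference between the shares was not tested. ACGTG alone was held by 21.4% of all windows and GCGTG alone by 36.5%, and the E-box CACGTG, which overlaps ACGTG, by 7.26%. In the sequences, given 5′ to 3′ on the strand of the gene, capitals mark the matches (CACGT and CACGC are the same motifs read on the other strand). The stretch of PDK1 lies at chr2:172556065-172556094 on the plus strand, that of LDHA at chr11:18394358-18394387 (plus), that of PGK1 at chrX:78104017-78104089 (plus) and that of HK2 at chr2:74834956-74835124 (plus).
PDK1: ctgcccgcCACGTccctCACGTaccactcg
LDHA: ccttacttagactcccagcgCACGTGgagc
PGK1: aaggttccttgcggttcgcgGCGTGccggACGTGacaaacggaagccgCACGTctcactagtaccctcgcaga
HK2: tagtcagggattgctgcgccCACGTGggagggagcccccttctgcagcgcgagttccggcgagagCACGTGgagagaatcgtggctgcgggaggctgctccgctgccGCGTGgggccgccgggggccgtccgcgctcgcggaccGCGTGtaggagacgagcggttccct
PDK1 held 2 matches in 1 window, at -17 and -8 bases from the start site, both in an annotated exon. Its other window, starting at chr2:172555123, held 0. LDHA, PGK1 and HK2 held 6, 4 and 6 matches in 1 window each. Each CACGTG counts as 2 matches here, because it reads the same on both strands. The other windows of LDHA and HK2 held 1 and 3 matches. Any link between these matches and the levels of the genes was not tested. Matches inside CACGTG occurred in 3 of the 17 windows, 1 each of HK2, LDHA and ALDOA. A match is a description of the letters and says nothing of whether a factor is bound there in these cells.

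Sequencing depth was 26874899 to 38095600 counts per sample, and the level of 3 counts, taken as the detection limit, was 0.0787 to 0.112 CPM (counts scaled to a fixed library total). The pluripotent identity of the cells was checked with 12 marker genes, all of which had at least 1 TPM (transcripts per unit of a fixed total, a measure corrected for length) in every sample. Of 8 mesendoderm markers, none reached 1 TPM in all samples, and 5 were under 1 TPM in every sample. FOXA2 was at 2.72 and 3.63 TPM in the P3 samples and at 0.08 to 0.53 TPM in the others. EOMES reached 1.52 TPM and MIXL1 1.29 TPM at most. Of 6 neuroectoderm, 6 trophectoderm and 7 fibroblast markers, 1, 1 and 4 reached 1 TPM in all samples. The 4 fibroblast markers were THY1 (232 to 648 TPM), COL1A1 (51.3 to 150), COL1A2 (32.2 to 73.5) and PDGFRB (at least 2.17). The other 3 were under 1 TPM in every sample, among them the collagen COL3A1, at 0 to 0.02 TPM. The samples differed in the share of counts from the mitochondrial genome: it was 5.89% to 7.53% in both P2 samples, P3 replicate 2 and P4 replicate 2, 9.84% in P1 replicate 1, and 17.2% to 18.5% in P1 replicate 2, P3 replicate 1 and P4 replicate 1. In bulk RNA of this kind, fewer cells of a type and less RNA per cell cannot be told apart.

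Measured per length of transcript (TPM, the authors' values), the 10 genes fell into a high and a low set. The mean level over the 8 samples was 1672 TPM for ENO1, 1081 for ALDOA, 913 for PKM, 784 for LDHA, 549 for PGK1, 544 for SLC2A1 and 408 for SLC2A3. It was 67.1 TPM for PFKP, 37.1 for HK2 and 20.3 for PDK1. The most abundant of the 10 were thus ENO1, ranking 97 among all genes, and ALDOA, followed by PKM and LDHA. PFKP and HK2, enzymes of regulated upper steps, and the kinase PDK1 were the least abundant. Together the 10 genes took 0.540% to 0.749% of all TPM in a sample.

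Most of these reactions have several isozymes, and at most steps 1 member dominated. ALDOA made up 92.4% to 94.5% of the TPM of the 3 aldolases, ENO1 88.7% to 95.4% of the enolases, and PKM 99.87% or more of the TPM of PKM and PKLR. HK2 was a minority form, at 17.5% to 31.3% of hexokinase TPM. The 3 phosphofructokinase genes were at similar levels, with mean TPM of 67.1 for PFKP, 61.3 for PFKM and 55.2 for PFKL. PFKP was 29.2% to 40.2% of their TPM. LDHB, whose product favours the reaction from lactate to pyruvate, exceeded LDHA in all 8 samples, by 1.24 to 2.31 times in TPM.

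Differences between stages were tested on the counts, with edgeR's quasi-likelihood test and Benjamini-Hochberg adjustment over the 19499 genes that passed the filter on low counts, all 10 members among them. A gene was called at an adjusted p-value under 0.01 and an absolute log2 fold change above 1. When all 4 stages were compared at once, 1 of the 10 genes was called (PDK1), and 4.78% of all genes tested were called. At an adjusted p-value under 0.05 without a minimum fold change, the count of members was again 1, and the share of all genes was 13.1%. In P3 hESCs compared with P1 hESCs, 1 of 10 was called, against 3.93% of all genes (12.5% at 0.05). In P4 compared with P1 hESCs the count was 0, against 2.11% of all genes (5.94% at 0.05). DESeq2 also called 0 there, and 2 members had an unadjusted p-value under 0.05.

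Between P2 and P1 hESCs 0 members were called with edgeR, as were 0% of all genes (0.00513% at 0.05), and DESeq2 called 0 members. All 10 fitted differences were below 0, from -1.25 to -0.02 on the log2 scale with a median of -0.40, compared with a median of -0.01 over all genes tested, and 4 of the 10 had an unadjusted p-value under 0.05 (SLC2A1, LDHA, HK2 and PDK1). In P4 compared with P3 hESCs edgeR called 0 members, against 0.815% of all genes, and DESeq2 called 1 (PDK1). At an adjusted p-value under 0.05, PDK1 was lower in P4 than in P3 hESCs, where 3.31% of all genes passed that threshold in either direction, and 2 members had an unadjusted p-value under 0.05 (PDK1 and LDHA). When the 4 late samples (P3 and P4 hESCs) were compared with the 4 early ones (P1 and P2 hESCs), edgeR called 0 members, against 2.2% of all genes, DESeq2 called 1 (PDK1), and 1 had an unadjusted p-value under 0.05 (PDK1, which also passed an adjusted p-value of 0.05, as did 7.54% of all genes). The comparisons with P1 hESCs share the P1 samples and are not independent of each other.

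**Figure D1:**
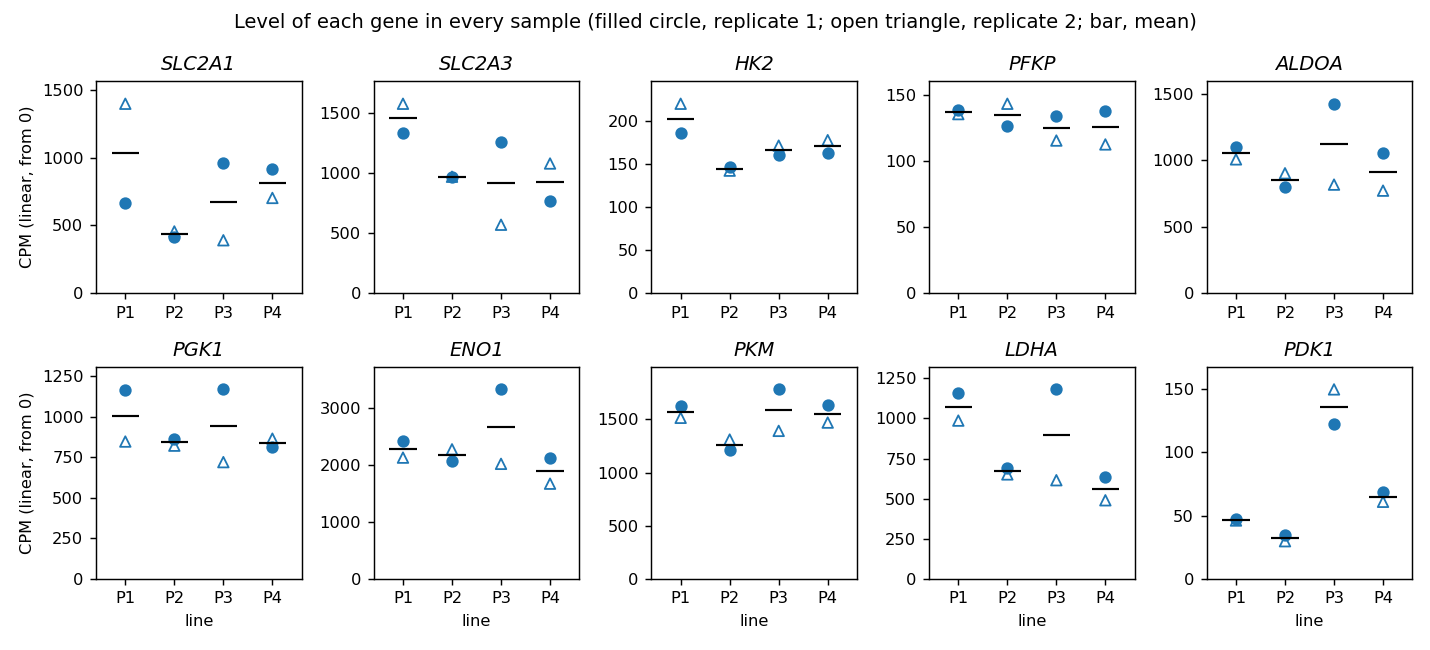
Each panel shows 1 gene, with the stage on the horizontal axis and its level in CPM on a linear vertical axis from 0 (filled circles, replicate 1; open triangles, replicate 2; bars, mean of the 2 samples). PDK1 is the gene whose stages separate, with the P3 samples at 122 and 150 CPM and all P1 and P2 samples below 50, whereas the P3 samples of SLC2A1, SLC2A3 and LDHA lie far apart.

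SLC2A1 (GLUT1), which lets glucose enter most cells, is encoded at chr1:42925375-42959176 (GENCODE release 29, GRCh38). Its normalized level was 668 and 1399 CPM in the P1 samples, 414 and 456 in P2, 958 and 391 in P3, and 918 and 703 in P4. The P1 and the P3 replicates lay further apart than most stage means did, and each stage overlapped its neighbour in the order P1, P4, P3, P2. The log2 fold change of P2 compared with P1 hESCs was -1.25 ± 0.39 (SE, adjusted p = 0.453, edgeR). This value depended on the filter on low counts: without it the same gene passed at an adjusted p-value of 2.77e-05, and without P1 replicate 2 the difference was -0.62. Over all alternatives the adjusted p-value of this difference ran from 2.77e-05 to 1. SLC2A1 took 41.5% to 71.4% of the TPM of the 10 glucose transporter genes examined, and SLC2A3 23.9% to 52.3%.

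SLC2A3 (GLUT3), a transporter with a high affinity for glucose, lies at chr12:7919230-7936275. Its level was 1338 and 1579 CPM in the P1 samples, 965 and 971 in P2, 1263 and 570 in P3, and 767 and 1081 in P4. P1 samples were the highest, P2 samples were close to each other, and the P3 and P4 samples spanned the values of P2. The differences from P1 hESCs were -0.59 ± 0.31 in P2, -0.67 ± 0.31 in P3 and -0.66 ± 0.31 in P4 on the log2 scale (SE, adjusted p = 0.595, 0.176 and 0.248, edgeR). The value of P3 was -1.35 (adjusted p = 0.0137) without P3 replicate 1 and -0.21 (adjusted p = 0.627) without P3 replicate 2, and that of P4 was -0.43 (adjusted p = 0.537) without P4 replicate 1. SLC2A3 shares 11.5% of its 75-base stretches with SLC2A14, a neighbouring copy whose count was 0.917% to 2.2% of that of SLC2A3, and its pseudogenes held up to 1.18% of its count, so a small part of its reads may have been assigned between them.

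HK2, the hexokinase that traps glucose as glucose 6-phosphate and can sit on the mitochondrial surface, lies at chr2:74833981-74893359. It was measured at 186 and 221 CPM in P1, 147 and 143 in P2, 161 and 172 in P3, and 164 and 178 in P4. P1 samples were the highest and P2 samples the lowest, with P3 and P4 overlapping between them. The largest fitted difference, P2 compared with P1 hESCs, was -0.49 ± 0.18 on the log2 scale (SE, adjusted p = 0.499, edgeR).

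PFKP, the platelet form of phosphofructokinase, catalyses the committed step of glycolysis and lies at chr10:3066333-3137712. Its level ranged from 112 to 143 CPM over the 8 samples and its stage means from 125 to 137 CPM, the narrowest range of means among the 10 genes. All neighbouring stages overlapped. Its differences from P1 hESCs were between -0.14 and -0.02 on the log2 scale, each with an SE of 0.19.

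ALDOA (chr16:30064164-30070457), which splits fructose 1,6-bisphosphate, measured 1100 and 1007 CPM in P1, 802 and 902 in P2, 1425 and 817 in P3, and 1054 and 771 in P4. The P3 samples enclosed every other sample but P2 replicate 1 and P4 replicate 2, and all neighbouring stages overlapped. Of its 75-base stretches, 48.7% are shared with AC093512.2, an overlapping gene on the same strand. No count was obtained for AC093512.2, so whether any reads of ALDOA were divided with it was not tested. The shared percentage describes the sequence and does not measure an error of the count.

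PGK1 (chrX:77910739-78129296) makes the first ATP of the pathway, and ENO1 (chr1:8861000-8879250) forms phosphoenolpyruvate. PGK1 was measured at 1169 and 848 CPM in P1, 862 and 822 in P2, 1170 and 721 in P3, and 811 and 866 in P4. ENO1 was measured at 2421 and 2129 CPM in P1, 2077 and 2275 in P2, 3328 and 2020 in P3, and 2131 and 1671 in P4. In both genes P3 replicate 1 was the highest of all samples (in PGK1 level with P1 replicate 1), and neighbouring stages overlapped throughout.

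PKM (chr15:72199029-72231822) encodes the pyruvate kinase that makes pyruvate and the second ATP. It was measured at 1628 and 1515 CPM in P1, 1212 and 1310 in P2, 1782 and 1392 in P3, and 1633 and 1470 in P4. The P2 samples were the lowest of the 8 and the other 3 stages overlapped. For ALDOA, PGK1, ENO1 and PKM the differences of P3 and P4 hESCs from P1 and P2 hESCs lay between -0.05 and 0.15 on the log2 scale, with SEs of 0.15 to 0.20 and adjusted p-values of 0.562 to 0.923 (edgeR). The gene-level counts do not separate the M1 and M2 forms of PKM.

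LDHA (chr11:18394388-18408425) reduces pyruvate to lactate and so restores the NAD that glycolysis needs. Its level was 1161 and 987 CPM in P1, 690 and 651 in P2, 1181 and 615 in P3, and 634 and 490 in P4. The 2 P1 samples lay above both P2 and both P4 samples, and the P3 samples spanned from P1 to P4. The log2 fold change of P4 compared with P1 hESCs was -0.93 ± 0.28 (SE, adjusted p = 0.0707, edgeR), that of P2 compared with P1 hESCs -0.68 ± 0.28 (adjusted p = 0.513) and that of P4 compared with P3 hESCs -0.68 ± 0.28 (adjusted p = 0.209). None of these passed the test. The difference of P4 from P3 hESCs was -0.13 (adjusted p = 0.823) without P3 replicate 1 and -1.07 (adjusted p = 0.0375) without P3 replicate 2. As a share of the 3 lactate dehydrogenase genes in TPM, LDHA was 42.8% to 44.6% in P1, 34.3% to 34.5% in P2, 30.2% and 40.8% in P3, and 30.2% and 35.8% in P4 hESCs.

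PDK1 encodes pyruvate dehydrogenase kinase 1, which phosphorylates the E1 subunit of the pyruvate dehydrogenase complex and so keeps pyruvate out of the citric acid cycle. It lies at chr2:172555373-172608669 on the plus strand. Its level was 47.0 and 46.2 CPM in the P1 samples, 34.5 and 29.8 in P2, 122 and 150 in P3, and 68.6 and 61.0 in P4. No 2 stages overlapped in CPM, with P2 lowest, then P1, P4 and P3. In TPM the P1 samples (14.28 and 11.35) overlapped the P2 samples (12.39 and 11.83). The stage means were 46.6 ± 0.567, 32.1 ± 3.34, 136 ± 19.4 and 64.8 ± 5.40 CPM in P1, P2, P3 and P4 hESCs (SD, n = 2). The largest difference between any 2 stages was 2.08 on the log2 scale, and the difference between the P3 replicates was 0.29, the largest between replicates of this gene.

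In the test of all 4 stages PDK1 had an adjusted p-value of 9.81e-05 (edgeR). It was higher in P3 than in P1 hESCs by 1.55 ± 0.19 on the log2 scale (SE, adjusted p = 4.92e-04, edgeR). Without P1 replicate 2 the difference was 1.54 with an adjusted p-value of 0.0127, and on the log2(TPM + 1) scale in limma it was 1.41 with an adjusted p-value of 0.0218, both past 0.01, and over all alternatives its adjusted p-value was 3.67e-11 to 0.0218. P4 hESCs were at 0.48 ± 0.19 relative to P1 hESCs (adjusted p = 0.171) and at -1.07 ± 0.19 relative to P3 hESCs (adjusted p = 0.0114). For P3 and P4 hESCs together the difference from P1 and P2 hESCs was 1.35 ± 0.28 (adjusted p = 0.0168, edgeR, 1.36 and 1.28e-04 with DESeq2, 7.6e-05 to 0.0537 over all alternatives). All 4 late samples lay above all 4 early samples, a separation that 17.6% of all genes tested showed in one direction or the other. With the mitochondrial share of each sample as a covariate, the difference of P3 from P1 hESCs was 1.54 with an adjusted p-value of 4.05e-04. PDK1 shared no 75-base stretch with another gene, but an antisense gene, AC078883.1, overlaps its exons, and whether the counting used the strand is not given in the sources used here.

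**Figure D2:**
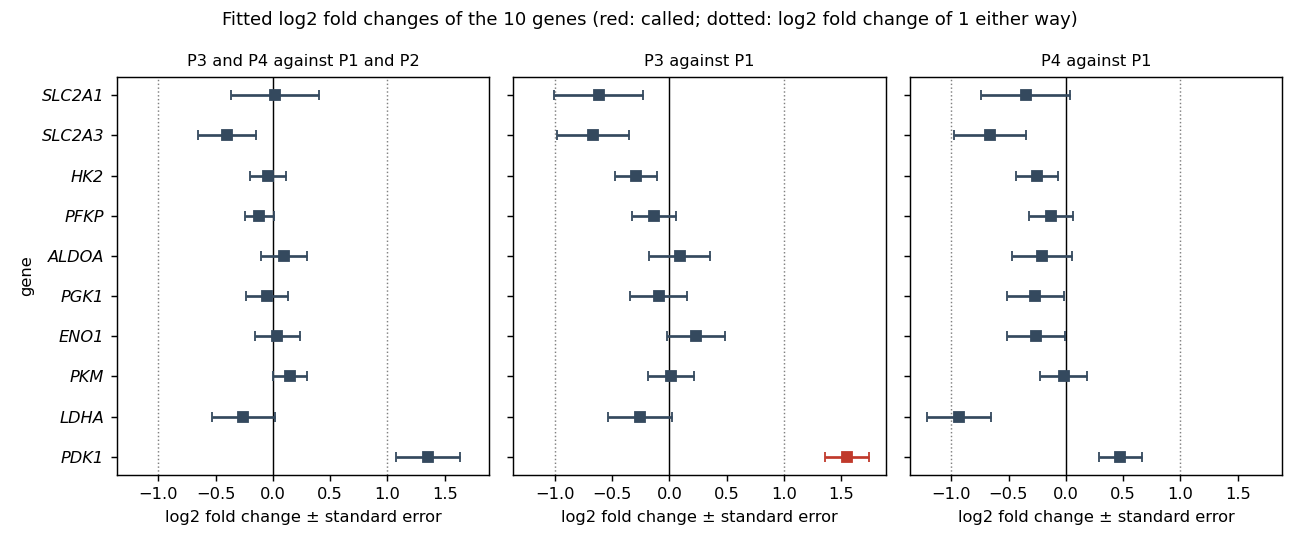
Fitted log2 fold changes (horizontal axis, squares) with their standard errors (bars) for the 10 genes in 3 comparisons (P3 and P4 against P1 and P2, P3 against P1, and P4 against P1), with dotted lines at a log2 fold change of 1 in either direction and the called value in red. PDK1 in P3 compared with P1 hESCs, at 1.55, is the called value, and LDHA in P4 compared with P1 hESCs, at -0.93, is the lowest of the values plotted.

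PDK1 is 1 of 4 pyruvate dehydrogenase kinases. By TPM it made up 26.8% and 31.1% of the 4 genes in the P1 samples, 23.2% and 23.8% in P2, 51.0% and 58.0% in P3, and 38.6% and 30.4% in P4. It was thus the majority kinase transcript in the P3 samples and in none of the others. PDHA1, the E1 subunit that the kinases act on, was measured at 92.8 and 79.6 CPM in P1, 92.7 and 95.8 in P2, 116 and 120 in P3, and 205 and 188 in P4. It was highest in both P4 samples, and its log2 fold change from P1 hESCs was 1.19 ± 0.18 in P4 (adjusted p = 0.00226, edgeR, called) and 0.46 ± 0.18 in P3 (adjusted p = 0.114). The call in P4 was lost when P1 replicate 1, P1 replicate 2, P4 replicate 1 or P4 replicate 2 was left out, at adjusted p-values of 0.0137, 0.0442, 0.0132 and 0.0113, and the size of the difference stayed between 1.08 and 1.298. The ratio of PDHA1 to PDK1 in TPM was 11.6 to 16.4 in the P1 and P2 samples, 5.50 and 5.84 in P3, and 18.6 and 19.1 in P4. The ratio was therefore lowest in P3 and highest in P4 hESCs, without overlap, and the ratio itself was not tested.

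The other genes of pyruvate entry were also described. Of 13 genes (PDK1 and PDHA1 included), 1 was called higher in P3 and 1 in P4 hESCs, both compared with P1 hESCs, and 0 were called lower. Of all genes tested, 1.3% were called higher and 2.63% lower in P3, and 0.954% and 1.16% in P4. At an adjusted p-value under 0.05, DLD, the E3 subunit of the complex, was higher in P3 than in P1 hESCs by 0.74 ± 0.19 (adjusted p = 0.0279, edgeR) and MPC2, a subunit of the carrier that brings pyruvate into the mitochondrion, by 1.02 ± 0.24 (adjusted p = 0.0192), a threshold that 12.5% of all genes passed. For DLD the adjusted p-value was 0.0505 to 0.2 without any one P1, P2 or P3 sample and 0.267 and 0.271 on the TPM scales. For MPC2 the difference was 0.86 (adjusted p = 0.188) without P1 replicate 2, 0.71 (adjusted p = 0.124) without P3 replicate 1 and 1.28 without P3 replicate 2, and the adjusted p-value was 0.09 and 0.0873 on the TPM scales. For P3 compared with P1 hESCs these 13 genes had a median of 0.46 on the log2 scale, beside -0.02 over all genes tested.

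In all, 89 further genes of glucose, lactate, pyruvate, pentose phosphate, gluconeogenesis and HIF metabolism were listed, and 79 of them were tested. In P3 and P4 compared with P1 and P2 hESCs, 1 was called higher and 2 lower (3.8%), where 1.06% of all genes were called higher and 1.14% lower. In P3 compared with P1 hESCs 2 were called higher and 2 lower (5.06%), where the shares of all genes were 1.3% and 2.63%. In P4 compared with P1 hESCs 2 were called higher and 0 lower (2.53%), where the shares were 0.954% and 1.16%. Of the pathway groups, the pentose phosphate genes (7 tested) and the gluconeogenesis genes (4 tested) had 0 calls in every comparison by edgeR and by DESeq2, with at most 4 and 0 of them at an unadjusted p-value under 0.05.

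Among 20 glycolytic enzymes tested, 2 were called in the test of all 4 stages, where 4.78% of all genes were called, and the same 2, PKLR and PGAM2, in P3 compared with P1 hESCs, where 3.93% were. Both are isozymes with low levels here. PKLR, the liver and red cell pyruvate kinase, had 1 or 2 counts in each P1 and P2 sample and 57 and 78 counts in P3 and 40 and 32 in P4, so it was called in P3 and in P4 compared with P1 hESCs from almost nothing, and no fold is given. PGAM2, the muscle phosphoglycerate mutase, was measured at 0.573 and 0.284 CPM in P1, 1.39 and 1.57 in P2, 9.10 and 3.65 in P3, and 1.68 and 1.72 in P4. It was higher in P3 than in P1 hESCs by 3.87 ± 0.51 on the log2 scale (adjusted p = 7.14e-04, edgeR), and without P1 replicate 2 by 3.47 (adjusted p = 0.0204). The abundant enzymes GAPDH (3504 to 5834 CPM), TPI1 (845 to 1441 CPM), PGAM1 (709 to 1161 CPM) and GPI (237 to 410 CPM) were not called in any comparison.

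The HIF group was 19 genes that respond to or regulate HIFs outside glycolysis. In P3 and P4 compared with P1 and P2 hESCs, 2 were called lower and 0 higher. The shares of all genes tested were 1.14% and 1.06%. In P3 compared with P1 hESCs 2 were called lower and 0 higher, where the shares were 2.63% and 1.3%. VEGFA, the vascular growth factor, was measured at 81.3 and 90.1 CPM in P1, 104 and 105 in P2, 23.0 and 33.9 in P3, and 44.8 and 46.3 in P4. The late samples were all below the early ones, a separation that 17.6% of all genes tested showed in one direction or the other. The log2 fold change was -1.36 ± 0.21 (adjusted p = 0.00309, edgeR). ADM, the peptide adrenomedullin, was measured at 240 and 305 CPM in P1, 275 and 299 in P2, 91.4 and 147 in P3, and 58.5 and 118 in P4, a log2 fold change of -1.44 ± 0.24 for the late stages (adjusted p = 0.00495). Both calls were lost without some of the samples. The adjusted p-value of VEGFA was 0.0116 to 0.0123 without P2 replicate 1, P2 replicate 2 or P3 replicate 2, and that of ADM was 0.012 to 0.0171 without P3 replicate 1 or any one P1 or P2 sample. On the TPM scales (limma) the adjusted p-values were 0.0376 and 0.0392 for VEGFA and 0.0108 and 0.0101 for ADM.

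EGLN1, an oxygen-sensing prolyl hydroxylase that marks HIF for degradation, was measured at 40.4 and 34.3 CPM in P1 and at 13.2 to 18.3 CPM in the 6 other samples. Its log2 fold change in P3 compared with P1 hESCs was -1.21 ± 0.22 (adjusted p = 0.0052, edgeR), and without any one of the P1 or P3 samples the adjusted p-value was 0.0159 to 0.0348. EGLN3, a related hydroxylase, differed by -0.75 ± 0.13 in the late stages (adjusted p = 0.00627), under the fold required for a call. HIF1A itself was measured at 163 to 253 CPM and was not called. In the late stages the 19 genes had a median of 0.10 on the log2 scale, 10 of them above 0 and 9 below it. In P3 hESCs PDK1 was higher and VEGFA lower than in P1 hESCs, and whether HIFs act on either gene here was not tested.

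**Figure D3:**
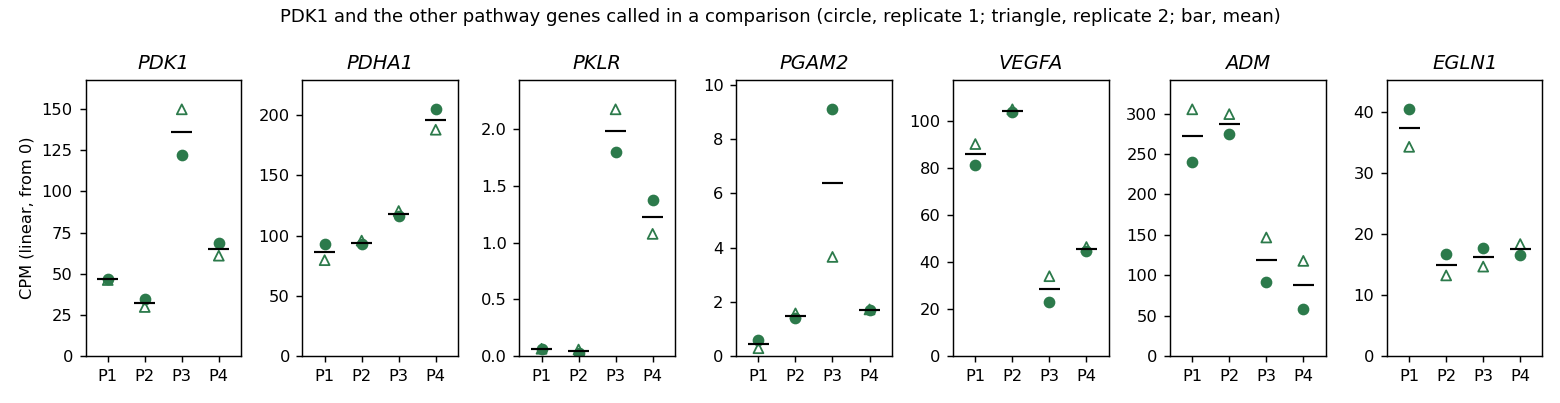
Levels in CPM (linear vertical axes from 0) of PDK1 and of the 6 other pathway genes called in a comparison, by stage (circles, replicate 1; triangles, replicate 2; bars, mean of the 2 samples). PDHA1 is highest in P4 (188 and 205 CPM) and PDK1 in P3, VEGFA and ADM are lower in P3 and P4 than in P1 and P2, and EGLN1 is high in P1 alone.

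In the reported edgeR fits, no gene that sets the flux through phosphofructokinase or forms or carries lactate was called in any comparison. The genes at an adjusted p-value under 0.05 are given here. SLC16A1 (MCT1), a lactate transporter, was measured at 842 and 1166 CPM in P1 and at 586 and 406 in P4, a log2 fold change of -1.02 ± 0.25 (adjusted p = 0.0319, edgeR). PFKFB3 and PFKFB4, which set the level of the phosphofructokinase activator fructose 2,6-bisphosphate, differed by -1.01 ± 0.26 (adjusted p = 0.0403) and by -1.21 ± 0.33 (adjusted p = 0.0488) in P4 compared with P1 hESCs. DESeq2 called all 3 (adjusted p = 0.00169, 0.00532 and 0.00426 in the order given), and edgeR with no filter on low counts called PFKFB4 (adjusted p = 9.48e-05). Without P1 replicate 2 the differences were -0.76 for SLC16A1, -0.56 for PFKFB3 and -0.51 for PFKFB4, with adjusted p-values of 0.299, 0.42 and 0.529, and without P1 replicate 1 that of PFKFB4 was -1.68 (adjusted p = 0.00849). Over all alternatives the adjusted p-values reached from 0.000717 to 0.299, from 0.00132 to 0.42 and from 9.48e-05 to 0.529. SLC16A3 (MCT4), TXNIP and BSG were not called. In other comparisons LDHD passed an adjusted p-value of 0.05 (edgeR), lower in P3 than P1 hESCs and higher in P4 than P3 hESCs. The shares of all genes there were 12.5% and 3.31%, and DESeq2 called 1 lactate gene in each. LDHD was at 4.23 and 6.56 TPM in P1, 1.99 and 1.26 in P3, and 5.55 and 11.3 in P4. In the test of all 4 stages LDHD, SLC16A7 and PFKFB4 passed 0.05 (13.1% of all genes did). PFKFB3 passed it in the late stages, where it was lower (7.54% did).

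The replicates of P3 hESCs differed more in these genes than those of the other stages did. P3 replicate 1 exceeded P3 replicate 2 in 8 of the 10 genes, by 1.295 on the log2 CPM scale for SLC2A1, 1.15 for SLC2A3, 0.94 for LDHA, 0.80 for ALDOA, 0.72 for ENO1 and 0.70 for PGK1, with a median over the 10 genes of 0.71. Over all genes tested, 51.8% were higher in replicate 1, with a median difference of 0.02 and a median absolute difference of 0.35. HK2 and PDK1 were the exceptions, at -0.09 and -0.29. In P4 hESCs replicate 1 was the higher in 7 of the 10 genes with a median of 0.23, in P1 hESCs in 7 of 10 with a median of 0.07, and in P2 hESCs in 4 of 10 with a median of -0.06.

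**Figure D4:**
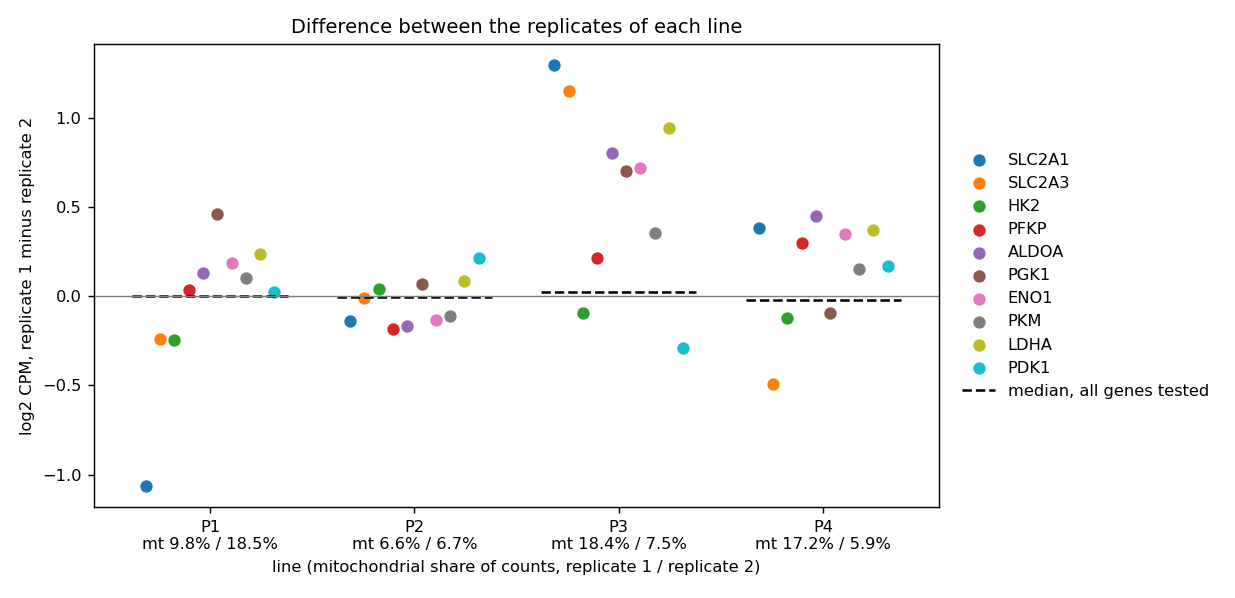
Difference in log2 CPM between replicate 1 and replicate 2 of each stage (vertical axis) for the 10 genes (coloured points), with the median of all genes tested as a dashed line and the mitochondrial share of counts of both replicates under each stage. Most points of P3 lie well above the dashed line, at up to 1.295, whereas those of P2 lie within 0.22 of 0.

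The P3 replicates had mitochondrial shares of 18.4% and 7.53%, the P4 replicates 17.2% and 5.89%, and the replicate with the higher share had the higher level in most of the 10 genes in both stages. In P1 hESCs the order was the other way, with replicate 1 at 9.84% and replicate 2 at 18.5%. The part of the mitochondrial share in these differences was not tested. Averaged over the 10 genes after each was scaled over the 8 samples, the level was 1.09 in P3 replicate 1, 0.64 and 0.55 in the P1 samples, 0.03 in P4 replicate 1, and between -0.70 and -0.46 in both P2 samples, P3 replicate 2 and P4 replicate 2 (in standard deviations). This average is a description over 8 samples. The genes outside the lists whose log2 CPM followed it most closely over the 8 samples, of 14762 compared, were RPS14P8 (Pearson r = 0.978), NLGN1 (0.951), SLC49A4 (0.945), UGT3A2 (0.942) and DPAGT1 (0.936).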

How the data were processed

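The study made TruSeq Stranded mRNA libraries from total RNA. Per the labels and the submitters' processing notes, the tools were FastQC, Trim Galore, STAR 2.7.3a and RSEM 1.3.3 on GRCh38; the annotation release and the strand setting of the counting are not given in the sources used here. The authors deposited, for each gene and sample, an expected count, a TPM value, transcript lengths (also deposited) and FPKM, which was not used. Samples were grouped by their titles.

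Expected counts were rounded, and edgeR 4.0.16 in R 4.3.3 was used (TMM factors, which also scale CPM; filterByExpr by the 4 lines kept 19499 genes). Stages were tested in a model with 4 groups, and late against early samples in a model with 2. Each SE was the absolute log2 fold change over the root of its F value. The thresholds (adjusted p under 0.01, absolute log2 fold change above 1) follow the paper, which names DESeq2. Alternatives were DESeq2 1.42.0 and its size factors, no filter, limma 3.58.1 on log2(TPM + 1) or log2(TPM + 0.1), the replicate number as a block, another model or threshold, only the samples compared, mitochondrial genes left out, the mitochondrial share as a covariate, and each sample left out. The fits were tested on simulated data. Replicate numbers come from the labels; differences between replicates correlated across genes with r of -0.09 to 0.14 between pairs of lines, so the numbers were not taken to pair samples.

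The 10 genes and the pathway lists were chosen with earlier results of these data known. Of the lists, every called gene, the 4 most abundant per list, the 5 genes most like the members and pseudogenes above 1% of a member's count could be named; MPC2, EGLN3, DLD and some others were named after their values were seen. Symbols matched 56558 identifiers. Positions are those of GENCODE release 29 and promoter sequences are RefSeq's (GRCh38.p14). Counting limits cover counting error only.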

Additional observations from a re-analysis of the deposited data

Results flagged for a closer look

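In the 32 sets of 4 samples examined (P1 with P2, and P3 with P4, for each gene), 2 held a sample far from the other 3, measured by its gap to the nearest sample over the whole range; about 1 in 20 sets, here 1.6, would do so by chance. PGK1 in P1 replicate 1 was at 1169 CPM, beside 822 to 862 CPM in the other P1 and P2 samples, a gap of 0.866 of the range. PKLR in P2 replicate 1 was at 0.0243 CPM, beside 0.056 to 0.063 CPM in the others, a gap of 0.877 of the range, and these levels rest on 1 or 2 counts per sample.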

How the results depend on the processing

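The values rest on 2 samples per stage, so differences smaller than the spread between the P3 replicates could not be resolved, and genes at a few counts (PKLR) are limited by depth. A stage left with 1 sample was assumed to vary like the others. Of 612 fold changes of named genes under alternatives, 543 kept direction and call, 38 lost the call, 15 gained one and 16 changed sign, the last all from uncalled values of at most 0.13 in size. The cause of these changes was not tested. TPM rescaled without mitochondrially encoded genes moved 37 of 40 stage means of the 10 genes by more than 1 SD (of 2 samples). This rescaling raises every other gene in every sample, so the count does not show whether differences between stages change.

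For the test of all 4 stages, 1 of the 10 genes was called in the reported fit, 2 with no filter on low counts, and 0 on log2(TPM + 1) or log2(TPM + 0.1) in limma. For the late against the early samples, the count went from 0 to 1 with DESeq2, no filter, the model with 4 groups, or an adjusted p-value under 0.05, and ranged from 0 to 1 with a sample left out (1 without P4 replicate 2). For P2 compared with P1 hESCs it was 1 with no filter. For P3 compared with P1 hESCs it went from 1 to 0 with both TPM scales, and ranged from 0 to 1 with a sample left out (0 without P1 replicate 2, where PDK1 had an adjusted p-value of 0.0127). For P4 compared with P3 hESCs it was 1 with DESeq2, no filter, the mitochondrial share as a covariate, or an adjusted p-value under 0.05.

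When a block for the replicate number was added, the counts of members called were 1, 0, 0, 1, 0 and 0 in the 6 comparisons, as without it, and PDK1 in P3 compared with P1 hESCs was at 1.55 (adjusted p = 8.12e-04, edgeR). The numbers were not taken to pair the samples.

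The late against early difference of ALDOA changed sign to -0.0508 on both TPM scales and to -0.0214 with the mitochondrial covariate, and ranged from -0.11 to 0.21 with a sample left out. That of ENO1 changed to -0.14 on both TPM scales and to -0.0523 with the covariate, with a range of -0.20 to 0.16, and that of PGK1 ranged from -0.211 to 0.0689. PFKP in P2 compared with P1 hESCs changed to 0.0408 and 0.0413 on the TPM scales and to 0.10 with the covariate, with a range of -0.118 to 0.0639, and in P4 compared with P1 hESCs it ranged from -0.285 to 0.0114.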
